A study of Arabidopsis thaliana with 9 samples.

Results

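The 10 genes described here make or regulate indole glucosinolates and camalexin, the tryptophan-derived defence compounds of *Arabidopsis thaliana*. They were chosen by name for their place in the pathway, with earlier results of these data known, out of 37361 loci in the count tables. They are the regulators *MYB34* (AT5G60890) and *MYB51* (AT1G18570), the tryptophan entry gene *ASA1* (AT5G05730), the core genes *CYP79B2* (AT4G39950), *CYP79B3* (AT2G22330), *CYP83B1* (AT4G31500) and *SOT16* (AT1G74100), the side-chain gene *CYP81F2* (AT5G57220) and the camalexin genes *CYP71A13* (AT2G30770) and *PAD3* (AT3G26830). All 10 passed the filter on low counts, as did 22400 loci in all. Polyadenylated RNA was sequenced from whole seedlings, 14 days old, in 3 libraries labelled *thp1-5*, 3 labelled *sac3bc* and 3 of the wild type Col. All groups grew on medium with 1% sucrose at 22 °C, in 16 h light and 8 h dark. The mutated genes code for parts of TREX-2 (*THP1*, *SAC3B* and *SAC3C*), a complex at the nuclear pore that links transcription with mRNA export. The labels give no allele for *sac3bc*, and they do not say whether the libraries of a group are from separate cultures. The p-values thus cover the spread among these libraries alone, which may be technical.

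Indole glucosinolates are sulfur-rich thioglucosides that are stored intact and cut by β-thioglucosidases when tissue is damaged or attacked. Their synthesis starts from tryptophan, which the CYP79B enzymes turn into indole-3-acetaldoxime. From that branch point, CYP83B1 leads to glucosinolates, while CYP71A13 leads to camalexin, an antifungal phytoalexin whose last step is made by PAD3. Seedlings that have not met a pathogen usually hold indole glucosinolates and little camalexin.

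Promoter windows are shown for 4 of the genes: *CYP79B2* and *CYP79B3*, paralogs of the same step whose windows share a block, and *MYB51* and *CYP81F2*, which have 2 W-box cores each and whose levels separated all 3 groups. Each is the run of 250 bases before the annotated start of the gene, on the plus strand of the RefSeq assembly TAIR10.1. The windows of *CYP79B2* (chr4:18524792-18525041) and *CYP79B3* (chr2:9488163-9488412) shared an ungapped block of 44 bases, 42 of them identical, which is in capitals. It lay 99 to 56 bases before the start of *CYP79B2* and 173 to 130 bases before that of *CYP79B3*. In the windows of *MYB51* (chr1:6389149-6389398) and *CYP81F2* (chr5:23187590-23187839), capitals mark TTGAC, the core of the W box bound by WRKY factors, or its complement GTCAA.
CYP79B2: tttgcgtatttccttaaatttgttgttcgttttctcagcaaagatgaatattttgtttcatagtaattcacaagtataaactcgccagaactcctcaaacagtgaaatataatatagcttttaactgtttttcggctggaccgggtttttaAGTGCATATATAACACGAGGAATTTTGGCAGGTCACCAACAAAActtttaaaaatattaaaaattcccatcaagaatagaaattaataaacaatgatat
CYP79B3: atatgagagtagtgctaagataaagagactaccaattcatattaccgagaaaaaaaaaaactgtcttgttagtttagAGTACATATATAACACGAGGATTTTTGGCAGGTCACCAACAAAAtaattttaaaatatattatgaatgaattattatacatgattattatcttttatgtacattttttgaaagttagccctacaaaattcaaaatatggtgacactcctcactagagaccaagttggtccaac
MYB51: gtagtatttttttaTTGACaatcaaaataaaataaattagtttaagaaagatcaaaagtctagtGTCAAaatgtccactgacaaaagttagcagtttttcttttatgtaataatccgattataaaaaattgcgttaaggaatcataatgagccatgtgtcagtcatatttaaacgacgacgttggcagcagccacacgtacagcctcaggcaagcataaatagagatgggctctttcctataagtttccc
CYP81F2: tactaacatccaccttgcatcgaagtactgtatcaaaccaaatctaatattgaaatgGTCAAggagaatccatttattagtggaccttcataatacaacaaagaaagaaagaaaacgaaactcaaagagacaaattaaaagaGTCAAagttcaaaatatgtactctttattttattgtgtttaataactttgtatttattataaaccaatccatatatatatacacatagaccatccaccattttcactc

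The windows of the 10 genes and of *CYP71A12*, the paralog of *CYP71A13*, gave 55 pairs. The longest block, 85 bases with 80 identical, was that of *CYP71A13* and *CYP71A12*, which are not printed because their annotated starts are their start codons. Among the 53 pairs other than these and the CYP79B pair, the longest block was 20 bases. TTGAC on either strand stood in 4 of the 10 windows, those of *MYB51*, *ASA1*, *CYP81F2* and *CYP71A13*, against 44.9% of the 27443 windows of all nuclear protein-coding genes. Levels separated the 3 groups also for *ASA1* and *CYP71A13*, and for *CYP83B1*, *SOT16* and *PAD3*, whose windows lack TTGAC. How many of all tested genes separate the groups in this way was not counted. Of them, 63.8% differed in *thp1-5* against Col, 68.0% in *sac3bc* against Col and 23.0% between the mutants, at an edgeR adjusted p under 0.05. A link between the motif and the levels was not tested. The G-box CACGTG, a site of MYC factors, stood in 0 of the 10 windows against 6.5% of all windows. Of MYB elements only the form ACCNAAC was searched, and it stood in 0 of the 10 windows against 14.5% of all windows. The motifs were searched on both strands and do not overlap each other as written.

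Total counts per library were 12.8 to 16.7 M in *thp1-5*, 16.1 to 17.9 M in *sac3bc* and 13.2 to 15.6 M in Col. Libraries of a group differed by more than counting noise but much less than groups did, with a chi-square per degree of freedom of 1.45 to 1.92 within groups and 6.04 to 60.4 between them. Levels below are CPM, read counts scaled to a common library size with TMM factors. *THP1* had 11.8 CPM in *thp1-5*, 6.17 CPM in *sac3bc* and 12.6 CPM in Col, so its count does not check the *thp1-5* label (edgeR adjusted p of 0.413). *SAC3B* had 33.2, 25.7 and 46.9 CPM in the same order, and *SAC3C* had 13.4, 7.71 and 15.2 CPM. No transcript level was near 0 in the mutant labelled for it. Photosynthesis genes chosen to mark the shoot and genes chosen to mark the root mostly moved in opposite directions. All 6 shoot markers were called lower in both mutants, beside 31.8% of all tested genes in *thp1-5* and 33.0% in *sac3bc*. Their summed levels were 26842 to 27630 CPM in *thp1-5*, 23257 to 24206 CPM in *sac3bc* and 38803 to 39819 CPM in Col. Of the 8 root markers, 7 could be tested, and 6 were called higher in *thp1-5* and 7 in *sac3bc*, beside 32.0% and 35.0% of all tested genes. *CASP1* was not called in *thp1-5*, at a log2 fold change of -0.16 ± 0.08 (SE). The 4 root markers raised at least 2-fold in *sac3bc*, beside 7.01% of all tested genes, were *LRX1*, *PRP3*, *COBL9* and *EXPA7*. *PYK10*, a gene abundant in roots but outside this marker list, was lower in *thp1-5* and *sac3bc*, at -1.101 and -1.14 on the log2 scale. Summed levels of the root markers were 161 to 172 CPM in *thp1-5*, 204 to 213 CPM in *sac3bc* and 105 to 109 CPM in Col. Whether a shift between organs has a part in the results below was not tested. In bulk seedlings, fewer cells of a type and less RNA per cell cannot be told apart.

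In *thp1-5*, 9 of the 10 genes were called higher than in Col and 0 lower, at an adjusted p under 0.05 in edgeR's quasi-likelihood test. Of all tested genes, 63.8% were called in that comparison, 32.0% higher and 31.8% lower. In *sac3bc*, 8 were called higher and 0 lower, where 68.0% of all tested genes were called, 35.0% higher and 33.0% lower. At 2-fold or more, 3 of the 10 genes rose in *thp1-5* and 4 in *sac3bc*, against 4.95% and 7.01% of all tested genes, while 0 fell by as much, against 4.53% and 5.57%. The median log2 fold change of the 10 genes was 0.54 in *thp1-5* and 0.69 in *sac3bc*, while the medians of all tested genes were 0.01 and 0.03. When libraries were scaled by their total counts instead, 10 of the 10 genes were called higher in each mutant, beside 56% of all tested genes in *thp1-5* and 60.8% in *sac3bc*, with 16.1% and 16.2% lower. Summed over the 10 genes, the level was 594 to 609 CPM in *thp1-5*, 681 to 689 CPM in *sac3bc* and 472 to 480 CPM in Col, with no overlap between the groups. Both comparisons share the Col libraries. The changes were uneven along the pathway: 1.13-fold in *thp1-5* and 1.14-fold in *sac3bc* at *CYP79B2*, and 2-fold or more at *CYP81F2*, *CYP71A13* and *PAD3* in both mutants and at *MYB51* in *sac3bc*.

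**Figure D1:**
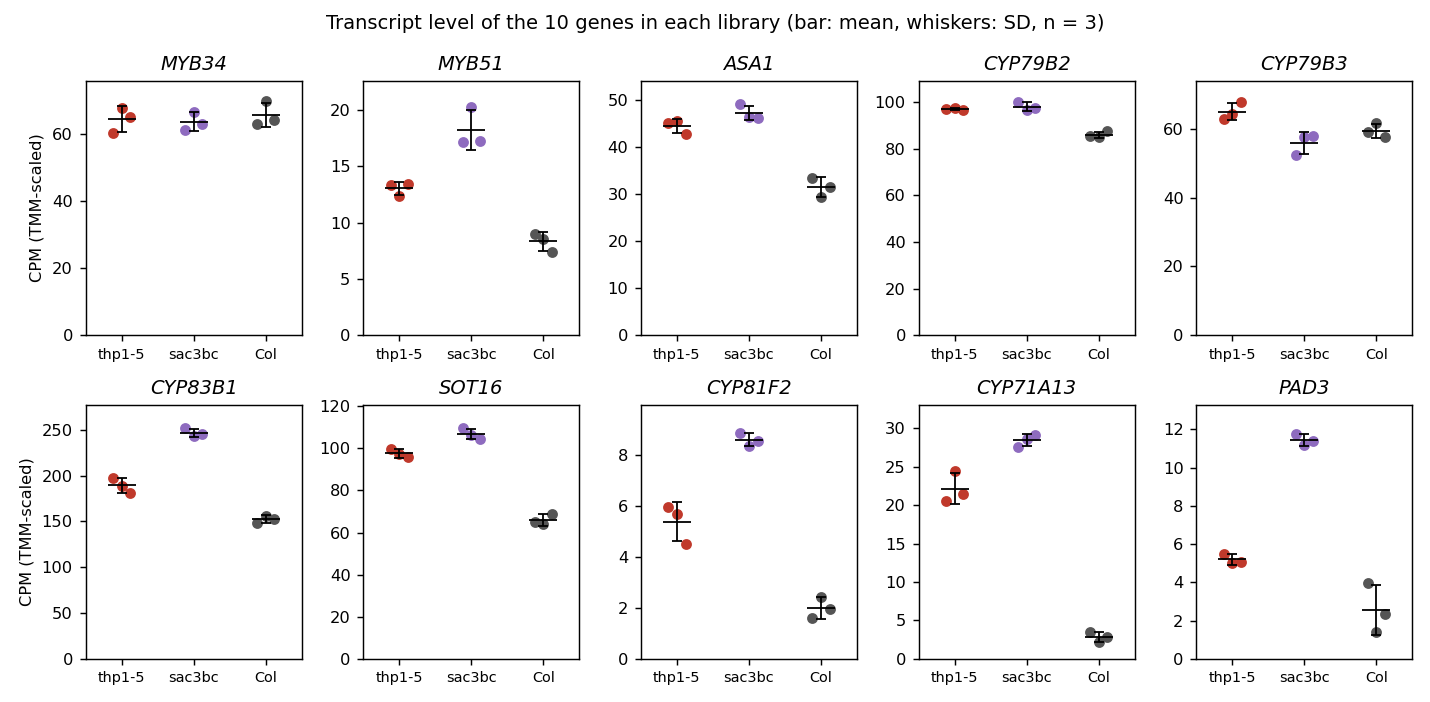
TMM-scaled CPM (y axis, from 0, with its own range in each panel) of each of the 10 genes in the 3 *thp1-5*, 3 *sac3bc* and 3 Col libraries. Points are libraries, bars are means and whiskers are SD; the groups overlap for *MYB34* and stand apart for *CYP71A13*.

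The regulators *MYB34* and *MYB51*, R2R3-MYB activators of the indole glucosinolate genes, behaved differently. *MYB34* had 60.2, 67.8 and 65.1 CPM in *thp1-5*, 61.3, 66.6 and 63.0 CPM in *sac3bc* and 62.8, 69.7 and 64.1 CPM in Col. The 3 groups overlapped. Its log2 fold change was -0.02 ± 0.05 (SE) in *thp1-5* and -0.04 ± 0.05 (SE) in *sac3bc*, with edgeR adjusted p of 0.678 and 0.402. With total-count scaling, *MYB34* was called higher instead, by 0.26 and 0.29. Under that scaling the median log2 fold change of all genes was 0.302 in *thp1-5* and 0.365 in *sac3bc*, against 0.015 and 0.03 with TMM.

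*MYB51* had 13.3, 12.4 and 13.4 CPM in *thp1-5*, 17.2, 20.2 and 17.3 CPM in *sac3bc* and 8.99, 8.53 and 7.42 CPM in Col. Each *sac3bc* library was above each *thp1-5* library, and these were above each Col library. Its log2 fold change was 0.65 ± 0.11 (SE) in *thp1-5* and 1.14 ± 0.10 (SE) in *sac3bc*, with edgeR adjusted p of 1.32e-07 and 3.51e-20. As a share of the summed level of the pair, per length, *MYB34* made up 83.2 ± 1.3% in *thp1-5*, 77.8 ± 0.95% in *sac3bc* and 88.8 ± 1.1% in Col (SD, n = 3 each). No library of either mutant reached the Col range, and the exact two-sided permutation p was 0.1 for each mutant, the smallest that 3 against 3 libraries allow.

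*ASA1*, the catalytic subunit of anthranilate synthase at the entry to tryptophan synthesis, had 45.2, 45.5 and 42.7 CPM in *thp1-5*, 49.0, 46.4 and 46.2 CPM in *sac3bc* and 33.5, 29.3 and 31.5 CPM in Col. All libraries of both mutants were above all Col libraries. Its log2 fold change was 0.51 ± 0.06 (SE) in *thp1-5* and 0.59 ± 0.06 (SE) in *sac3bc*, with edgeR adjusted p of 1.91e-13 and 6.29e-18. Of its 2204 exonic bases, 194 are shared with the loci AT5G05720 and AT5G05735, the latter on the opposite strand. How these bases divide between them was not counted. AT5G05735 had counts of 148, 215 and 133 in *thp1-5*, 206, 203 and 242 in *sac3bc* and 92, 92 and 100 in Col, with log2 fold changes of 0.55 and 0.64. Whether the counting used strand is not known from the sources at hand. Reads of both strands therefore cannot be told apart there.

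*CYP79B2* and *CYP79B3* are paralogous cytochromes P450 that turn tryptophan into indole-3-acetaldoxime. *CYP79B2* had 97.2, 97.6 and 96.5 CPM in *thp1-5*, 100.2, 96.5 and 97.6 CPM in *sac3bc* and 85.3, 84.9 and 87.4 CPM in Col. The mutants overlapped each other and both were above Col, by a log2 fold change of 0.18 ± 0.04 (SE) in *thp1-5* and 0.19 ± 0.04 (SE) in *sac3bc*, with edgeR adjusted p of 3.96e-05 and 4.71e-06. *CYP79B3* had 63.0, 64.3 and 67.7 CPM in *thp1-5*, 52.3, 57.6 and 58.1 CPM in *sac3bc* and 59.1, 61.6 and 57.6 CPM in Col. The *thp1-5* libraries were above all others, and those of *sac3bc* and Col overlapped. It was called higher in *thp1-5*, by 0.13 ± 0.05 (SE) on the log2 scale with an edgeR adjusted p of 0.0149, and this call was lost without Col replicate 3 or *thp1-5* replicate 3, where adjusted p was 0.0923 and 0.0966, and in DESeq2, where it was 0.0656. In *sac3bc* its log2 fold change was -0.09 ± 0.05 (SE) with an edgeR adjusted p of 0.102, and with total-count scaling it was called higher by 0.25. *CYP79B2* made up 61.0 ± 1% of the pair's level per length in *thp1-5*, 64.8 ± 1.7% in *sac3bc* and 60.2 ± 1.2% in Col (SD, n = 3 each). The exact two-sided permutation p was 0.4 for *thp1-5* and 0.1 for *sac3bc*, where 0.1 is the smallest possible.

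*CYP83B1*, which oxidises indole-3-acetaldoxime and commits it to glucosinolates, was the most abundant of the 10 genes per length in every group. It had 198, 189 and 182 CPM in *thp1-5*, 252, 243 and 245 CPM in *sac3bc* and 148, 156 and 153 CPM in Col. The 3 groups did not overlap. It was higher by 0.31 ± 0.03 (SE) on the log2 scale in *thp1-5* and by 0.69 ± 0.03 (SE) in *sac3bc*, with edgeR adjusted p of 1.63e-17 and 3.15e-48.

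*SOT16*, the sulfotransferase that completes the indole glucosinolate core, had 99.9, 97.3 and 95.8 CPM in *thp1-5*, 109.5, 106.6 and 104.5 CPM in *sac3bc* and 64.8, 63.9 and 69.0 CPM in Col. The groups again stood apart, with the mutants closer to each other than to Col. Its log2 fold change was 0.57 ± 0.04 (SE) in *thp1-5* and 0.70 ± 0.04 (SE) in *sac3bc*, with edgeR adjusted p of 8.64e-26 and 9.84e-35.

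*CYP81F2* hydroxylates the indole ring of the finished glucosinolate and supplies the methoxylated form used in immunity. Its level was low, at 5.95, 5.70 and 4.50 CPM in *thp1-5*, 8.87, 8.36 and 8.56 CPM in *sac3bc* and 1.59, 2.43 and 1.95 CPM in Col. No group overlapped another. It was 2.68-fold higher in *thp1-5*, a log2 fold change of 1.42 ± 0.19 (SE), and 4.26-fold higher in *sac3bc*, a log2 fold change of 2.09 ± 0.17 (SE), with edgeR adjusted p of 8.46e-11 and 2.08e-22. By the size of the rise it ranked 488 of the 22400 tested genes in *thp1-5* and 298 in *sac3bc*.

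*CYP71A13*, which turns indole-3-acetaldoxime into indole-3-acetonitrile on the way to camalexin, gave the largest fold change of the 10 genes in both mutants. It had 20.5, 24.4 and 21.5 CPM in *thp1-5*, 27.6, 28.6 and 29.2 CPM in *sac3bc* and 3.44, 2.13 and 2.85 CPM in Col. All libraries of each mutant were far above all Col libraries. The counts were 8.03-fold higher in *thp1-5*, a log2 fold change of 3.005 ± 0.125 (SE), and 10.3-fold higher in *sac3bc*, a log2 fold change of 3.36 ± 0.12 (SE), with edgeR adjusted p of 4.95e-49 and 7.54e-58. It ranked 50 and 58 of the 22400 tested genes by the size of the rise.

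The locus AT2G30766 lies on the opposite strand over the whole last exon of *CYP71A13*, and 330 of the 1494 exonic bases of *CYP71A13*, or 22.1%, are shared with it. Its counts were 1047, 1534 and 1188 in *thp1-5*, 1528, 1761 and 1781 in *sac3bc* and 185, 179 and 213 in Col. Like those of *CYP71A13*, they were higher in all libraries of both mutants than in Col. Its log2 fold change was 2.46 in *thp1-5* and 2.58 in *sac3bc*, with edgeR adjusted p of 3.45e-75 and 8.83e-80. The count of *CYP71A13* was 26.8 ± 1.3% of that of AT2G30766 in *thp1-5*, 31.6 ± 0.64% in *sac3bc* and 18.4 ± 2.5% in Col (SD, n = 3 each), and the exact two-sided permutation p was 0.1 for each mutant, the smallest possible. Reads of these overlapping loci cannot be told apart without the strand setting, so how much of the rise belongs to *CYP71A13* was not tested. The 8 genes other than *CYP71A13* and *ASA1* share no exonic bases with another locus, and 0 of the 10 genes had a run of 150 exonic bases repeated elsewhere in the genome.

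**Figure D2:**
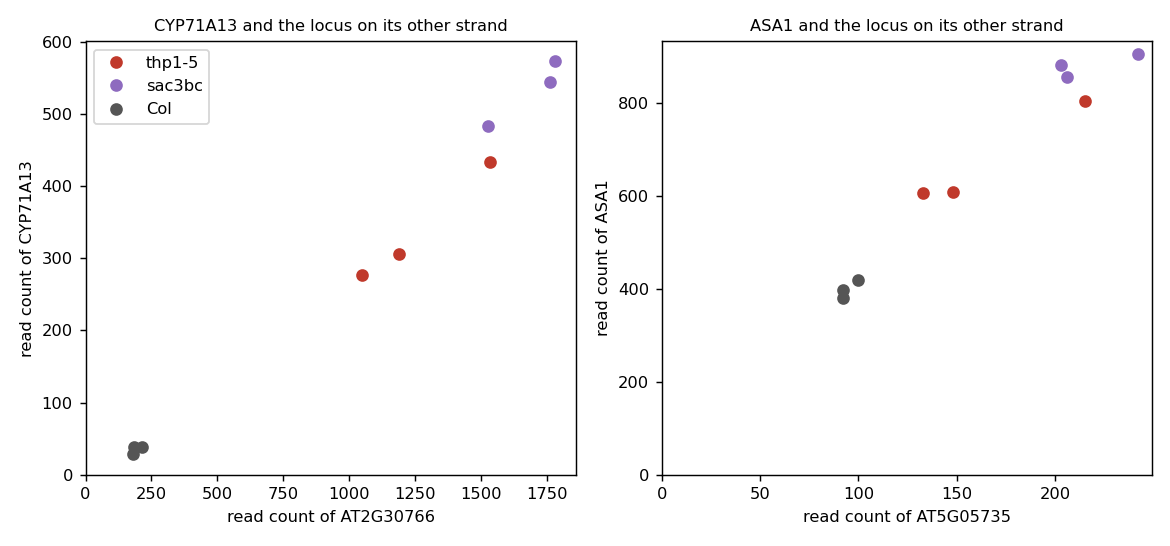
Read counts of *CYP71A13* against AT2G30766 (left) and of *ASA1* against AT5G05735 (right), which overlap on opposite strands, with 1 point per library and both axes linear from 0. In the left panel the *thp1-5* and *sac3bc* libraries have counts of AT2G30766 from 1047 to 1781 and the Col libraries from 179 to 213. Counts of *CYP71A13* are also higher in all libraries of both mutants than in Col. The counts are not scaled to library size.

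*PAD3*, the cytochrome P450 of the last step to camalexin, shares no exonic bases with another locus. It had 5.50, 5.02 and 5.06 CPM in *thp1-5*, 11.8, 11.2 and 11.4 CPM in *sac3bc* and 3.97, 1.40 and 2.32 CPM in Col. The Col libraries varied most, and still none reached the lowest mutant library. *PAD3* was 2.08-fold higher in *thp1-5*, a log2 fold change of 1.05 ± 0.19 (SE), and 4.59-fold higher in *sac3bc*, a log2 fold change of 2.20 ± 0.16 (SE), with edgeR adjusted p of 4.85e-07 and 2.42e-26. By the size of the rise it ranked 1006 of the 22400 tested genes in *thp1-5* and 263 in *sac3bc*.

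**Figure D3:**
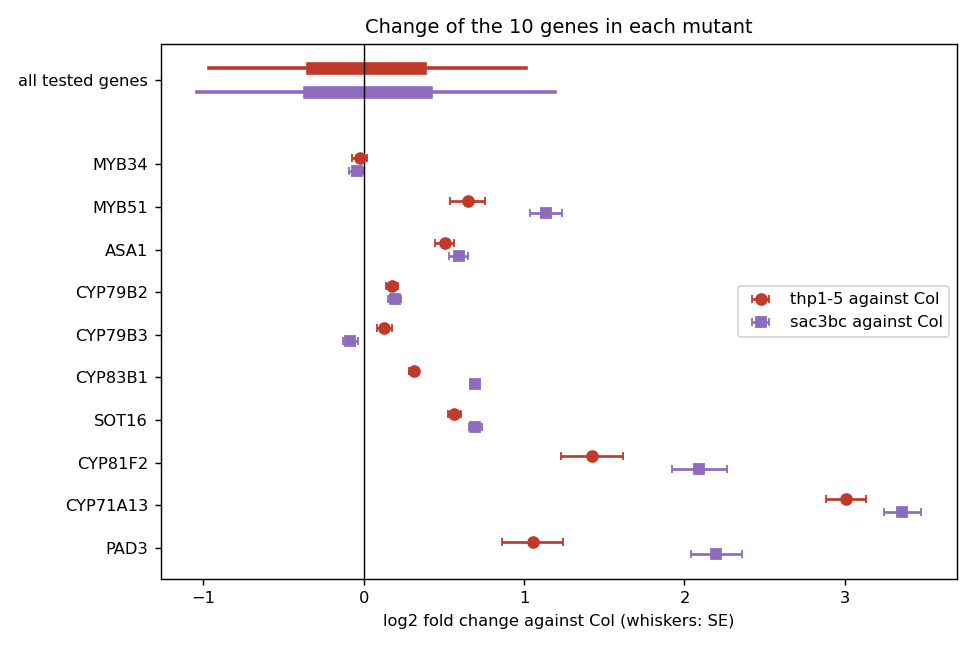
Log2 fold change against Col (x axis) of each of the 10 genes in *thp1-5* (circles) and *sac3bc* (squares), with whiskers for SE; the top bars give the 25th to 75th (thick) and 5th to 95th (thin) percentiles of all tested genes. *CYP81F2*, *CYP71A13* and *PAD3* lie beyond the 95th percentile, 1.01 in *thp1-5* and 1.19 in *sac3bc*, and *MYB34* lies near 0.

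Levels can be set against each other only per length. In Col the order was *CYP83B1* at 80.2 CPM per kb, *SOT16* at 48.8, *CYP79B2* at 40.2, *MYB34* at 36.9, *CYP79B3* at 26.5, *ASA1* at 14.3, *MYB51* at 4.66, *CYP71A13* at 1.88, *PAD3* at 1.44 and *CYP81F2* at 1.12 CPM per kb. The first 6 places were held by the same genes in the same order in all 3 groups. Below them, *CYP71A13* stood above *MYB51* in *thp1-5*, at 14.8 against 7.30 CPM per kb, and in *sac3bc*, at 19.1 against 10.2 CPM per kb. The *CYP71A13* level may include reads of the overlapping AT2G30766, so whether its own transcript exceeded that of *MYB51* was not tested. *PAD3* reached 2.92 CPM per kb in *thp1-5* and 6.44 CPM per kb in *sac3bc*, and *CYP81F2* reached 3.04 and 4.86 CPM per kb. Of neighbours in the order, *CYP81F2* and *PAD3* overlapped between libraries in *thp1-5*, and *CYP71A13* with *PAD3* and *PAD3* with *CYP81F2* in Col; no other neighbours did in any group.

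Set directly against each other, the mutants differed in 7 of the 10 genes, 1 higher and 6 lower in *thp1-5* than in *sac3bc*, where 23.0% of all tested genes were called, 12.1% higher and 10.9% lower. At 2-fold or more, 0 were higher and 1 was lower, against 0.223% and 0.817% of all tested genes. The median log2 fold change of the 10 genes was -0.24, and that of all tested genes was 0.00. The lower ones were *PAD3*, *CYP81F2*, *MYB51*, *CYP83B1*, *CYP71A13* and *SOT16*. *PAD3* differed most, by -1.14 ± 0.13 (SE) on the log2 scale with an edgeR adjusted p of 4.09e-13. *CYP81F2* differed by -0.67 ± 0.13 (SE), *MYB51* by -0.49 ± 0.09 (SE), *CYP83B1* by -0.38 ± 0.03 (SE) and *CYP71A13* by -0.35 ± 0.07 (SE), with edgeR adjusted p of 2.46e-05, 3.23e-06, 1.36e-24 and 3.5e-05. *SOT16* differed by -0.13 ± 0.04 (SE) with an edgeR adjusted p of 0.00439, and this call was lost in DESeq2, where adjusted p was 0.0545. *CYP79B3* was the 1 gene higher in *thp1-5* than in *sac3bc*, by 0.21 ± 0.05 (SE) with an edgeR adjusted p of 8.33e-05. No difference was called for *MYB34*, *CYP79B2* or *ASA1*, with log2 fold changes of 0.02 ± 0.05, -0.02 ± 0.04 and -0.08 ± 0.05 (SE), though *ASA1* was called with total-count scaling, at -0.13 and adjusted p of 0.0483 in edgeR.

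The lists of connected pathways are given by their counts, to be read against the shares of all tested genes: 32.0% higher and 31.8% lower in *thp1-5*, and 35.0% higher and 33.0% lower in *sac3bc*. Among 10 other regulators, 4 were called higher and 1 lower in *thp1-5*, a share of higher calls near that of all genes, and 7 higher and 1 lower in *sac3bc*, with a median log2 fold change of 0.25 in each. With total-count scaling, 9 were higher and 0 lower in each mutant, beside 56% and 60.8% of all tested genes higher, and the medians were 0.54 and 0.58. *MYC2*, called higher in both mutants with TMM factors, shares 98.5% of its exonic bases with another locus. *WRKY33*, a defence regulator that binds W boxes and activates camalexin genes, had 41.0, 40.7 and 42.0 CPM in *thp1-5*, 53.7, 57.6 and 59.1 CPM in *sac3bc* and 22.2, 23.6 and 20.8 CPM in Col. Like *MYB51*, it separated all 3 groups, with log2 fold changes of 0.89 ± 0.07 (SE) in *thp1-5* and 1.36 ± 0.06 (SE) in *sac3bc* and edgeR adjusted p of 2.2e-26 and 1.68e-46. *MKK9*, a kinase kinase upstream of MPK3 and MPK6, was higher by 0.81 ± 0.12 (SE) and 1.13 ± 0.11 (SE), and *MYC4*, a bHLH partner of the glucosinolate MYBs, by 0.57 ± 0.06 (SE) and 0.62 ± 0.06 (SE). *MPK6* changed by -0.39 ± 0.05 (SE) and -0.42 ± 0.05 (SE), calls that were lost with total-count scaling. *MYB122*, the least abundant of the indole glucosinolate MYBs, had 0.595, 1.35 and 1.12 CPM in *thp1-5*, 1.54, 1.104 and 1.58 CPM in *sac3bc* and 0.881, 0.441 and 0.525 CPM in Col. It was called in *sac3bc*, at 1.22 ± 0.37 (SE) with an edgeR adjusted p of 0.00246, and not in *thp1-5*, at 0.80 ± 0.41 (SE) with 0.0766. In *thp1-5* it was called with total-count scaling and without Col replicate 1 or *thp1-5* replicate 1, with edgeR adjusted p of 0.0124, 0.0374 and 0.0271, and it was not called between the mutants.

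Of 10 other genes of tryptophan synthesis, 1 was called higher and 4 lower in *thp1-5*, and 5 higher and 2 lower in *sac3bc*, with medians of -0.08 and 0.12. With total-count scaling, 5 and 9 were called higher and 0 lower, beside 56% and 60.8% of all tested genes higher. *PAT1*, which acts after anthranilate synthase and shares 14.3% of its exonic bases with another locus, was higher by 0.21 ± 0.05 (SE) in *thp1-5* and 0.42 ± 0.05 (SE) in *sac3bc*. *TSA1* and *IGPS*, later steps, were called higher in *sac3bc*, by 0.39 ± 0.05 (SE) and 0.36 ± 0.05 (SE). *TSB1*, a tryptophan synthase β subunit, had values of -0.18 ± 0.03 and -0.14 ± 0.03 (SE), and *ASA2*, the paralog of *ASA1*, had -0.24 ± 0.07 and -0.18 ± 0.07 (SE). These values turned positive with total-count scaling. The call of *ASA2* in *sac3bc* was also lost without Col replicate 2 or *sac3bc* replicate 2, where edgeR's adjusted p was 0.0722 and 0.0861.

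The shared glucosinolate core, used by indole and aliphatic glucosinolates alike, had 6 of 7 genes called higher and 1 lower in each mutant, with medians of 0.19 in *thp1-5* and 0.20 in *sac3bc*. *UGT74B1*, the glucosyltransferase, was higher by 0.46 ± 0.04 (SE) and 0.48 ± 0.04 (SE), and the glutathione transferase gene *GSTF10* by 0.19 ± 0.03 (SE) and 0.52 ± 0.03 (SE). Its tandem neighbour *GSTF9* was the lower one, at -0.44 ± 0.02 (SE) and -0.43 ± 0.02 (SE).

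Genes that modify or move indole glucosinolates split, with 3 higher and 5 lower of 10 in *thp1-5* and 5 higher and 5 lower in *sac3bc*. Of these, *CYP81F1*, called higher in both mutants, shares 98.4% of its exonic bases with another locus. *CYP81F4*, called lower in both, shares 88.2%. *IGMT1*, a methyltransferase that acts on the product of CYP81F2, had 21.9, 20.6 and 22.5 CPM in *thp1-5*, 22.5, 24.8 and 21.3 CPM in *sac3bc* and 101, 93.9 and 90.5 CPM in Col. It moved opposite to *CYP81F2*, at -2.14 ± 0.06 (SE) and -2.05 ± 0.05 (SE) on the log2 scale with edgeR adjusted p of 1.5e-71 and 1.21e-72. *IGMT4* changed by -0.71 ± 0.03 (SE) and -0.72 ± 0.03 (SE), and *IGMT5* by -0.70 ± 0.04 (SE) and -0.68 ± 0.04 (SE). Among the higher members, named here after their values were seen, the glucosinolate transporter genes *GTR1* and *GTR2* were higher by 0.30 ± 0.05 (SE) and 0.25 ± 0.04 (SE) in *thp1-5* and by 0.36 ± 0.04 (SE) and 0.35 ± 0.04 (SE) in *sac3bc*. *IGMT2*, of the same methyltransferase family as *IGMT1*, was called higher in *sac3bc*, by 0.69 ± 0.16 (SE), and had 0.19 ± 0.17 (SE) in *thp1-5*. Of its runs of 150 exonic bases, 16.3% are repeated elsewhere in the genome, and 382 of the 2247 exonic bases of *GTR1* are shared with other loci.

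Of 9 genes of glucosinolate breakdown, 7 were called lower in *thp1-5* and 6 in *sac3bc*, beside 31.8% and 33.0% of all tested genes, with 1 and 2 higher and medians of -0.57 and -0.56. With total-count scaling, 7 were lower and 2 higher in *thp1-5*, with a median of -0.28, and 5 lower and 4 higher in *sac3bc*, with a median of -0.22, beside 16.1% and 16.2% of all tested genes lower. *NSP1*, a nitrile specifier protein, changed by -1.20 ± 0.03 (SE) and -1.35 ± 0.03 (SE). *PYK10*, a β-glucosidase of endoplasmic reticulum bodies that is abundant in roots, changed by -1.101 ± 0.019 (SE) and -1.14 ± 0.02 (SE). The myrosinase gene *TGG1*, active in leaves, changed by -0.54 ± 0.02 (SE) and -0.56 ± 0.02 (SE). The higher genes, named after their values were seen, were *PEN3* in both mutants and *PEN2* in *sac3bc*. *PEN3* was higher by 0.11 ± 0.02 (SE) in *thp1-5* and 0.48 ± 0.02 (SE) in *sac3bc*. *PEN2* was higher by 0.20 ± 0.03 (SE) in *sac3bc* and was not called in *thp1-5*, at -0.02 ± 0.03 (SE).

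Of 6 other genes of camalexin and of indole-3-carbonyl nitrile, a related defence compound, 5 could be tested. In *thp1-5*, 3 were called higher and 2 lower, with a median of 0.54, and in *sac3bc* 3 higher and 1 lower, with a median of 1.48. *CYP71A12*, the paralog of *CYP71A13*, had 4.98, 5.42 and 5.34 CPM in *thp1-5*, 9.21, 10.99 and 9.99 CPM in *sac3bc* and 3.97, 3.24 and 3.67 CPM in Col. Its groups did not overlap, and its log2 fold changes were 0.54 ± 0.17 (SE) and 1.48 ± 0.14 (SE), with edgeR adjusted p of 0.00283 and 6.47e-18. *GSTF6*, a glutathione transferase of camalexin synthesis, was higher by 0.81 ± 0.06 (SE) and 1.95 ± 0.06 (SE). *FOX1*, an oxidase of the carbonyl nitrile route, was higher by 1.00 ± 0.34 (SE) and 2.39 ± 0.28 (SE), and its call in *thp1-5* was lost without Col replicate 1 or Col replicate 2, where edgeR's adjusted p was 0.0631 and 0.0928. *GGT1*, a γ-glutamyl transpeptidase gene, changed by -0.54 ± 0.06 (SE) and -0.49 ± 0.06 (SE). *CYP71B6*, which acts on indole-3-acetonitrile, had -0.17 ± 0.05 (SE) in *thp1-5*, a call that turned positive with total-count scaling, and 0.03 in *sac3bc*. *CYP82C2*, of the same route as *FOX1*, was too low to test, with counts of 4, 5 and 4 in *thp1-5*, 14, 10 and 20 in *sac3bc* and 2, 0 and 0 in Col.

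Aliphatic glucosinolates are made from methionine by a parallel set of enzymes. Of their 13 genes, 6 were called higher and 4 lower in *thp1-5*, and 2 higher and 8 lower in *sac3bc*, with medians of 0.05 and -0.22, beside the all-gene shares of 32.0% higher and 31.8% lower in *thp1-5* and 35.0% and 33.0% in *sac3bc*. With total-count scaling the split was 10 higher and 1 lower in *thp1-5* and 6 higher and 3 lower in *sac3bc*, where 56% and 60.8% of all tested genes were higher. Between the mutants, 10 of the 13 were called higher and 0 lower in *thp1-5* than in *sac3bc*, beside 12.1% and 10.9% of all tested genes. Of the 10 indole and camalexin genes, 1 was called higher and 6 lower. *MAM1*, of methionine chain elongation, changed by -0.37 ± 0.03 (SE) in *thp1-5* and -0.75 ± 0.03 (SE) in *sac3bc*, and *SOT17*, the aliphatic relative of *SOT16*, was higher by 0.60 ± 0.05 (SE) and 0.56 ± 0.05 (SE). *BCAT4*, the entry aminotransferase, 21.2% of whose exonic bases are shared with another locus, changed by -0.34 ± 0.03 (SE) and -0.64 ± 0.03 (SE), and *CYP79F1*, the counterpart of *CYP79B2*, by -0.11 ± 0.03 (SE) and -0.36 ± 0.03 (SE). Under total-count scaling, the *thp1-5* call of *BCAT4* and the *sac3bc* call of *CYP79F1* were lost and the *thp1-5* value of *CYP79F1* turned positive.

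**Figure D4:**
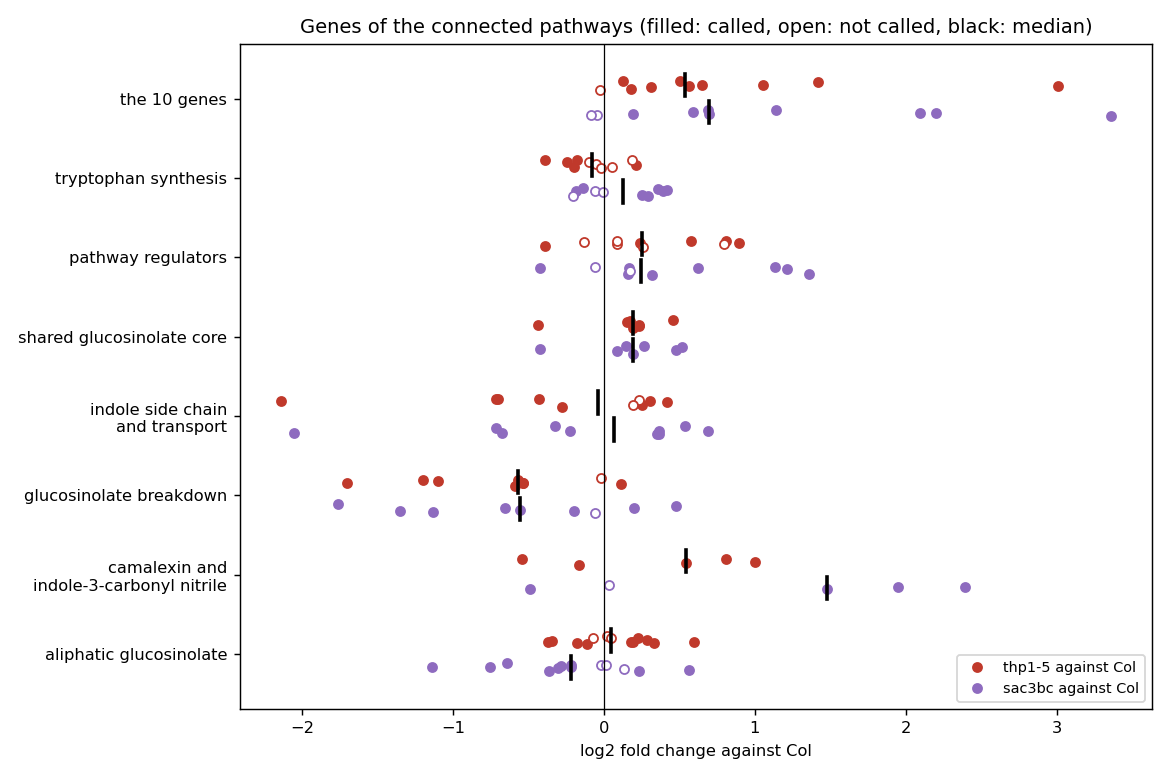
Log2 fold change against Col (x axis) of every tested gene of the 10 and of the connected pathways (rows), in *thp1-5* (red, upper line) and *sac3bc* (purple, lower line). Filled points were called, open points were not, and black ticks are medians; the breakdown genes have medians of -0.57 and -0.56 and the 10 genes 0.54 and 0.69.

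Across the 9 libraries, the tested genes with the pattern most like that of *CYP79B2* were AT5G46550, AT5G22140, AT2G20010 and AT1G78100, with Pearson's r of log2 CPM from 0.992 to 0.994 among 21180 genes searched. Those most like *PAD3* were AT1G15670, AT1G65610, AT5G09270 and AT4G34150, with r from 0.984 to 0.987. The 9 libraries fall into 3 groups, so r largely repeats the order of the group means. AT5G46550 had 31.2 CPM in *thp1-5*, 32.6 CPM in *sac3bc* and 18.5 CPM in Col, with the mutants close together as for *CYP79B2*. AT1G65610 had 8.69, 12.8 and 5.83 CPM in the same order, with *sac3bc* highest as for *PAD3*.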

How the data were processed

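Raw read counts per gene, with a gene length, were deposited as 1 table for each of the 9 libraries. According to the labels, RNA was extracted with Trizol, libraries were made with a NEBNext kit, and sequencing gave single-end reads of 150 nt. The submitters' processing notes name STAR and DESeq2. Not given in the sources used here are genome build, annotation, counter and use of strand. Deposited lengths equalled the exon union in TAIR10.1 for 99.51% of 37051 loci and for all 10 genes, so promoters and shared exons were taken from it.

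The fit was made in edgeR 4.0.16 under R 4.3.3 with these settings: TMM factors, filterByExpr at a minimum count of 10, robust quasi-likelihood F-test, 1 model of 9 libraries with 6 residual degrees of freedom, and Benjamini-Hochberg adjustment over 22400 genes. Genes were called at an adjusted p under 0.05. SE is the absolute log2 fold change over the square root of F and is approximate at low counts. Libraries were grouped by their titles.

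The genes and lists were chosen with earlier results of these data known. Named list genes are up to 3 called members per mutant with the smallest adjusted p, plus *WRKY33*, *MYB122* and *CYP71A12*. *CYP82C2*, *GTR1*, *GTR2*, *IGMT2*, *PEN2*, *PEN3*, *MYC2*, *CYP81F1*, *CYP81F4* and the root markers *CASP1*, *LRX1*, *PRP3*, *COBL9* and *EXPA7* were named after their values were seen. Alternatives were total-count scaling, DESeq2 1.42.0, no filter, a filter of 50 counts in 3 libraries, fitting the groups compared alone, a replicate block and leaving out each library.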

Additional observations from a re-analysis of the deposited data

How the results depend on the processing

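With 3 libraries per group, precision was limited mainly for genes with few counts, such as *MYB122*, *PAD3* and *CYP81F2*. Of the 10 genes, 9, 8 and 7 were called in *thp1-5* against Col, *sac3bc* against Col and *thp1-5* against *sac3bc*. Leaving out each library in turn gave 8 to 9, 8 to 8 and 7 to 7, DESeq2 gave 8, 8 and 6, and total-count scaling gave 10, 10 and 8. Of all 22400 tested genes, DESeq2 called 12736, 13675 and 3463, and total-count scaling called 16149, 17257 and 5467. Leaving out *CYP71A13* and *ASA1*, which was chosen after seeing the data, gave 7, 6 and 6 of 8. With libraries left out in turn, the share of *MYB34* in its pair differed from Col by -6.31 to -4.98 points in *thp1-5* and -11.55 to -10.4 in *sac3bc*, and that of *CYP79B2* by 0.23 to 1.4 and 3.54 to 5.13. The pathway lists held 46 to 49, 51 to 55 and 30 to 33 called genes, and all tested genes 13363 to 14372, 14294 to 15346 and 4179 to 5168. Total-count scaling made 77.6% of all calls higher in *thp1-5*, against 50.2% with TMM, 78.9% against 51.4% in *sac3bc*, and 32.4% against 52.5% in *thp1-5* against *sac3bc*, where DESeq2 gave 59.8%. It called 41 list genes higher and 14 lower in *thp1-5*, against 24 and 24 with TMM, and 13 lower in *sac3bc*, against 24. The setting's uniform shift of the log2 fold changes is part of its construction. Among listed genes called with TMM or with total-count scaling, these log2 fold changes against Col turned positive under total-count scaling. In *thp1-5* they were *MYB34* 0.26, *ASA2* 0.04, *ASB1* 0.09, *TSA1* 0.27, *TSB1* 0.11, *OBP2* 0.16, *CYP81F4* 0.01, *PEN2* 0.27, *CYP71B6* 0.12, *CYP79F1* 0.18, *CYP83A1* 0.11 and *FMOGS-OX1* 0.21. In *sac3bc* they were *MYB34* 0.29, *CYP79B3* 0.25, *ASA2* 0.15, *PAI1* 0.27, *PAI2* 0.33, *TSB1* 0.20, *OBP2* 0.27, *CYP81F4* 0.01, *IGMT3* 0.11, *NIT1* 0.14, *NIT2* 0.27, *MYB28* 0.32, *MYB29* 0.12, *BAT5* 0.05, *CYP83A1* 0.04 and *FMOGS-OX1* 0.12. Libraries with the same replicate number did not deviate together, with correlations of -0.009 to 0.038 over 9 pairs, and a replicate block called 9, 8 and 7 of the 10 genes and 14259, 15202 and 5094 of all genes.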
